A study of Mus musculus with 36 samples.

Results

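Aminoacyl-tRNA synthetases join each amino acid to its transfer RNA and so supply the ribosome with charged tRNA. Transcripts of 36 synthetase genes were followed in mouse embryonic fibroblasts: 20 genes for the enzymes of the cytosol and 16 genes, with names ending in 2, for those of the mitochondrion. Kars and Gars, counted here as cytosolic, encode enzymes that serve both compartments. The 36 genes were taken by name, from a list drawn up with earlier results of these data known. They made up 36 of the 36856 gene symbols in the deposited count table. All 36 passed the filter on low counts that left 16065 genes to test. The cells were labelled WT or PERK -/- (called PERK-null here), PERK being the kinase encoded by Eif2ak3. Cells of each genotype received DMSO (the solvent control), thapsigargin (Tg), BtdCPU, halofuginone, BtdCPU with thapsigargin, or halofuginone with thapsigargin, which made 12 groups of 3 libraries. The labels name the cells only as MEF, with no clone, culture, dose, treatment time or batch. A difference between genotypes therefore cannot be told apart from a difference between 2 cell lines. The p-values rest on the spread between libraries of the same group, estimated over all 12 groups together, and that spread may be technical.

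PERK phosphorylates the translation factor eIF2 alpha when the endoplasmic reticulum is under stress, which lowers general protein synthesis and raises translation of the transcription factor ATF4. Genes for amino acid uptake, amino acid synthesis and tRNA charging are textbook ATF4 targets. Thapsigargin blocks the calcium pump of the endoplasmic reticulum, BtdCPU activates the eIF2 alpha kinase HRI, and halofuginone occupies the prolyl site of the glutamyl-prolyl-tRNA synthetase EPRS and thereby activates the kinase GCN2. The design asks what PERK-null cells lose under thapsigargin and what a compound that works through another kinase gives back.

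Promoters were read because ATF4 binds with C/EBP partners to elements of the form TGATGNAAN (NTTNCATCA on the other strand, N being any base). Among 250 bases before the start site, 3 of the 13 cytosolic members with an entry in the RefSeq promoter table (GRCm38.p6) held this motif on either strand (23.1%), against none of 14 mitochondrial members. The share was 2.69% of 11747 tested genes with an entry and 3.44% of all 32851 windows of that length. Aars, Gars and Tars held it, and all 3 rose with thapsigargin in WT cells. Sars, Eprs, Yars, Iars, Mars, Farsa and Farsb, which also rose there, had an entry without the motif. Wars, Nars, Rars, Lars, Cars and Hars, which rose as well, had no entry. Whether the motif goes with a rise was not tested. The 3 stretches are printed 5′ to 3′ on the strand of the gene, with the motif in capitals.
Aars, chr8:111033709-111033757, plus strand, motif 113 bases before the start: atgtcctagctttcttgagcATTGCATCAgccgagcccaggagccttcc
Gars, chr6:55037950-55037998, plus strand, motif 31 bases before the start: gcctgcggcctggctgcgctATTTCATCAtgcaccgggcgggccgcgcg
Tars, chr15:11399659-11399694, minus strand, motif 16 bases before the start: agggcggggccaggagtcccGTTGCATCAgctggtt
In all 3 the match was on the strand opposite to the gene. A match of letters is a description of the sequence and not a measured binding site.

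Libraries held 32454257 to 37178107 counts. Levels are given as CPM, the usual depth-scaled share of a library's counts, on library sizes scaled by TMM. With DMSO, Eif2ak3 had a level of 9.95 ± 0.760 CPM in PERK-null libraries and of 31.1 ± 1.10 CPM (SD, n = 3) in WT ones. With thapsigargin it stood at 27.4 ± 3.31 and 87.2 ± 14.9 CPM, log2 fold changes of 1.46 and 1.49, so the Eif2ak3 transcript rose in the PERK-null libraries too (edgeR adjusted p = 3.06e-07). The difference between these responses was -0.02 (edgeR adjusted p = 0.977). In each of the 6 treatments all 3 PERK-null libraries lay below all 3 WT libraries for this gene. Which exons the mutation removes is not given in the sources used here, so counts over the whole gene check the labels only in part. The sum of 7 fibroblast markers was 20058 to 29580.3 CPM in WT DMSO, 14619 to 19270.4 CPM in WT thapsigargin, 14038 to 17896 CPM in PERK-null DMSO and 17149 to 22208 CPM in PERK-null thapsigargin libraries. Sums of 3 epithelial, 3 blood, 2 endothelial and 2 muscle markers stayed at or below 14.9 CPM in all 36 libraries, the highest being the epithelial sum in WT halofuginone libraries (10.1 to 14.9 CPM). Of 2 neuron markers Tubb3 was 60.4 ± 6.03 CPM in WT DMSO and 217 ± 12.9 CPM in WT thapsigargin libraries, and Rbfox3 was at or near 0 throughout. In PERK-null libraries the sum of both was 47.6 to 54.8 CPM with DMSO and 75.7 to 95.5 CPM with thapsigargin. The part of these markers in the results was not tested. In bulk samples fewer cells of a type and less RNA per cell cannot be told apart, and a CPM is a share of the counts of a library.

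In WT DMSO libraries, per kilobase of exon, every cytosolic member lay above every mitochondrial member. The cytosolic levels ran from 27.6 ± 1.11 CPM per kb (SD, n = 3) for Wars, the tryptophan enzyme, to 268 ± 34.6 CPM per kb for Kars, the lysine enzyme, which serves both compartments. Rars, the arginine enzyme, was next below Kars at 215 ± 11.1 CPM per kb. The mitochondrial levels ran from 1.20 ± 0.116 CPM per kb for Mars2, the methionine enzyme, to 24.9 ± 0.829 CPM per kb for Iars2, the isoleucine enzyme, which was near Wars. Iars2 shares 30.5% of its exon bases with Rab3gap2 on the opposite strand, and whether the counting used the strand is not given in the sources used here. Hars and Hars2, the histidine enzymes, lie on opposite strands and share 195 exon bases, 9.8% of those of Hars and 5.85% of those of Hars2. Hars stood at 218 ± 14.98 CPM and Hars2 at 28.8 ± 3.14 CPM in WT DMSO libraries, and the part of shared reads in either count was not tested.

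Thapsigargin raised most cytosolic synthetases in WT cells. The mitochondrial ones moved in both directions, as all tested genes did. The 20 cytosolic genes together took 6896, 6499 and 7058 CPM in the 3 WT DMSO libraries and 15298, 13513 and 15110.4 CPM with thapsigargin. Every thapsigargin library thus lay above every DMSO library, and the means were 6818 ± 288 and 14641 ± 981 CPM (SD, n = 3). The 16 mitochondrial genes took 537 ± 11.5 CPM before and 577 ± 20.4 CPM after. Among the cytosolic genes 16 rose, none fell and 4 were not called at an edgeR adjusted p below 0.05, where 24.9% of all tested genes rose and 22.7% fell. The median log2 fold change was 1.17 over the cytosolic genes, 0.14 over the mitochondrial genes and 0.02 over all tested genes.

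**Figure D1:**
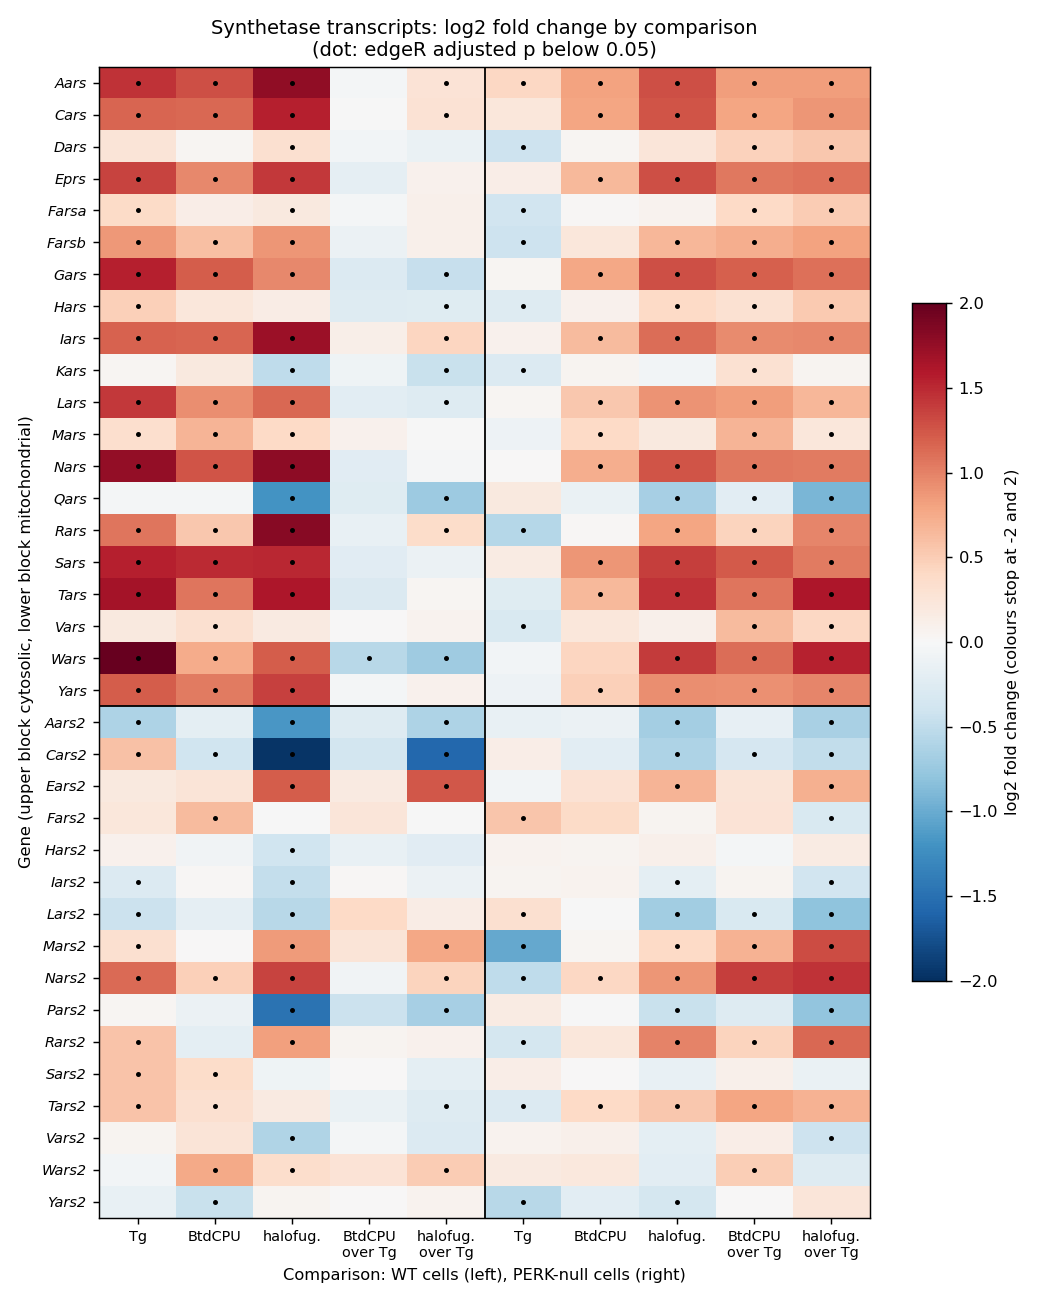
Log2 fold change of each of the 36 synthetase genes (rows, cytosolic above the line and mitochondrial below it) in 5 comparisons of WT cells (left of the line) and the same 5 of PERK-null cells (right), with a dot where the edgeR adjusted p is below 0.05. The cytosolic block is mostly red (Qars, Kars, Dars and Vars apart) for the 3 single treatments in WT cells, pale for thapsigargin in PERK-null cells, and red again where either compound was added to thapsigargin in PERK-null cells.

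Wars had the largest rise. It stood at 79.2, 76.1 and 82.5 CPM in the WT DMSO libraries and at 389.6, 351 and 397 CPM in the WT thapsigargin libraries, a log2 fold change of 2.26 ± 0.15 (SE; edgeR adjusted p = 2.14e-13) or 4.79-fold. The groups were far apart. Nars, the asparagine enzyme, went from 479, 461 and 449 CPM to 1642, 1374 and 1683 CPM, a log2 fold change of 1.76 ± 0.09 (SE; edgeR adjusted p = 1.13e-15). Tars, the threonine enzyme, went from 391, 389 and 358 CPM to 1255, 1131 and 1209.8 CPM, a log2 fold change of 1.66 ± 0.10 (SE; edgeR adjusted p = 6.95e-15). Neither gene had a library of one group within the range of the other. Gars, the glycine enzyme, Sars, the serine enzyme, and Aars, the alanine enzyme, had log2 fold changes of 1.55, 1.55 and 1.44. The 4 cytosolic genes that were not called were Dars (0.26), Vars (0.20), Kars (0.03) and Qars (-0.03), the enzymes for aspartate, valine, lysine and glutamine. All 16 rises were called in each of 11 alternative analyses. These used other scalings, filters, fits and tools, or left out 1 library at a time, and a call is said to be lost without a library where leaving out that library alone took its p past the threshold.

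The multisynthetase complex is a particle that holds several synthetases on scaffold proteins. Of its 8 members on the list 5 rose, with a median log2 fold change of 0.71, and of the 12 cytosolic genes outside it 11 rose, with a median of 1.33. The ranges overlapped, since Lars and Eprs in the complex had log2 fold changes of 1.42 and 1.35. The difference between the subsets was not tested. Mars, the methionine enzyme of the complex, rose by 0.34 ± 0.08 (SE; edgeR adjusted p = 0.00122). Its exons share 68 bases, 2.29% of their length, with Ddit3 on the opposite strand, and Ddit3 went from 13.6 ± 2.62 to 345 ± 35.9 CPM in the same libraries. The part of Ddit3 reads in the Mars count was not tested.

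Of the 16 mitochondrial genes 6 rose and 3 fell with thapsigargin in WT cells, against 24.9% higher and 22.7% lower among all tested genes. Nars2, the mitochondrial asparagine enzyme, moved with its cytosolic counterpart, from 15.1, 13.2 and 13.5 CPM to 30.6, 30.4 and 31.1 CPM, a log2 fold change of 1.14 ± 0.10 (SE; edgeR adjusted p = 1.7e-10). Its 3 thapsigargin libraries lay close together and above all DMSO libraries. Cars2, Tars2, Rars2 and Sars2, for cysteine, threonine, arginine and serine, rose by 0.58, 0.57, 0.57 and 0.57 on the log2 scale. Aars2, for alanine, fell from 24.1, 27.3 and 25.3 CPM to 16.7, 16.1 and 17.4 CPM, a log2 fold change of -0.61 ± 0.10 (SE; edgeR adjusted p = 3.39e-06), and Lars2, for leucine, had a log2 fold change of -0.43 ± 0.12 (SE; edgeR adjusted p = 0.00301). The call for Iars2 (log2 fold change -0.28) was lost when only the compared groups were fitted (edgeR adjusted p = 0.053). The call for Mars2 (log2 fold change 0.32) was lost without WT thapsigargin libraries 1, 2 or 3 or WT DMSO libraries 1 or 2 (edgeR adjusted p = 0.0533 to 0.164). Rab3gap2, which overlaps Iars2, rose in these libraries from 68.2 ± 10.1 to 129 ± 24.6 CPM.

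PERK-null cells did not raise the cytosolic set with thapsigargin. Its sum was 7462, 7444 and 7418 CPM in the PERK-null DMSO libraries and 7419, 7362 and 6936 CPM in the PERK-null thapsigargin libraries, and the ranges of the groups overlapped by 1 library. One cytosolic gene rose and 7 fell, against 15.2% of all tested genes higher and 12.7% lower, and the median log2 fold change was -0.08 beside 0.05 over all tested genes. The gene that rose was Aars, from 813, 827 and 819 CPM to 1101, 1112 and 1069.6 CPM, a log2 fold change of 0.42 ± 0.09 (SE; edgeR adjusted p = 0.000348). Wars was at 72.5, 73.4 and 82.1 CPM before and 72.9, 69.9 and 76.01 CPM after thapsigargin, and these ranges overlapped. Rars fell from 484, 462 and 417 CPM to 328, 317 and 271 CPM, a log2 fold change of -0.57 ± 0.11 (SE; edgeR adjusted p = 0.000219), and Farsb and Farsa, the subunits of the phenylalanine enzyme, had log2 fold changes of -0.41 and -0.38. These 3 falls were called in every alternative analysis. The other falls were each lost without single libraries: Dars without PERK-null DMSO library 2 (edgeR adjusted p = 0.0607) and Vars without PERK-null thapsigargin library 1 (edgeR adjusted p = 0.0624). Hars was lost without PERK-null thapsigargin libraries 1 or 3 or PERK-null DMSO libraries 1, 2 or 3 (edgeR adjusted p = 0.0508 to 0.118), and Kars without PERK-null thapsigargin libraries 1 or 2 or PERK-null DMSO libraries 1, 2 or 3 (edgeR adjusted p = 0.052 to 0.0699). Over all 36 genes 15 were called, and 9 without PERK-null DMSO library 2.

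Mitochondrial members gave 2 rises and 5 falls in PERK-null cells with thapsigargin, against 15.2% of all tested genes higher and 12.7% lower. Mars2 stood at 23.1, 19.9 and 19.7 CPM with DMSO and at 10.8, 10.7 and 9.24 CPM with thapsigargin, a log2 fold change of -1.03 ± 0.13 (SE; edgeR adjusted p = 1.71e-07). Nars2 fell from 17.7, 17.5 and 16.5 CPM to 11.95, 13.8 and 10.6 CPM, a log2 fold change of -0.51 ± 0.10 (SE; edgeR adjusted p = 0.000361), the reverse of its rise in WT cells. Yars2, for tyrosine, had a log2 fold change of -0.55 ± 0.14 (SE; edgeR adjusted p = 0.00406). Fars2, the single-chain phenylalanine enzyme, rose by 0.56 ± 0.12 (SE; edgeR adjusted p = 0.000439). The rise of Lars2 was lost without PERK-null thapsigargin libraries 1, 2 or 3 or PERK-null DMSO libraries 1, 2 or 3 (edgeR adjusted p = 0.0685 to 0.224). The fall of Rars2 was lost without PERK-null thapsigargin libraries 2 or 3 or PERK-null DMSO libraries 1 or 2 (edgeR adjusted p = 0.0547 to 0.185), and that of Tars2 without PERK-null thapsigargin libraries 1 or 2 or PERK-null DMSO libraries 1, 2 or 3 (edgeR adjusted p = 0.0527 to 0.0921).

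The difference between genotypes was tested directly as the PERK-null response to thapsigargin minus the WT response. It was negative and called for 18 of 20 cytosolic genes, positive for none, and not called for Kars and Qars. Among all tested genes 18.6% were lower and 19.5% higher by this test. The median difference was -1.15 over the cytosolic genes and 0.03 over all tested genes. It was -2.32 ± 0.21 (SE; edgeR adjusted p = 3.77e-10) for Wars, -1.90 ± 0.13 (SE; edgeR adjusted p = 4.7e-12) for Tars and -1.75 ± 0.13 (SE; edgeR adjusted p = 1.1e-11) for Nars. For Aars, the only cytosolic gene that rose in both genotypes, it was -1.03 ± 0.12 (SE; edgeR adjusted p = 5.36e-08). Mitochondrial genes were lower in 5 cases, led by Nars2 (-1.65) and Mars2 (-1.35), and higher in 3, led by Lars2 (0.76). All 18 cytosolic calls stood in 17 alternative analyses.

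**Figure D2:**
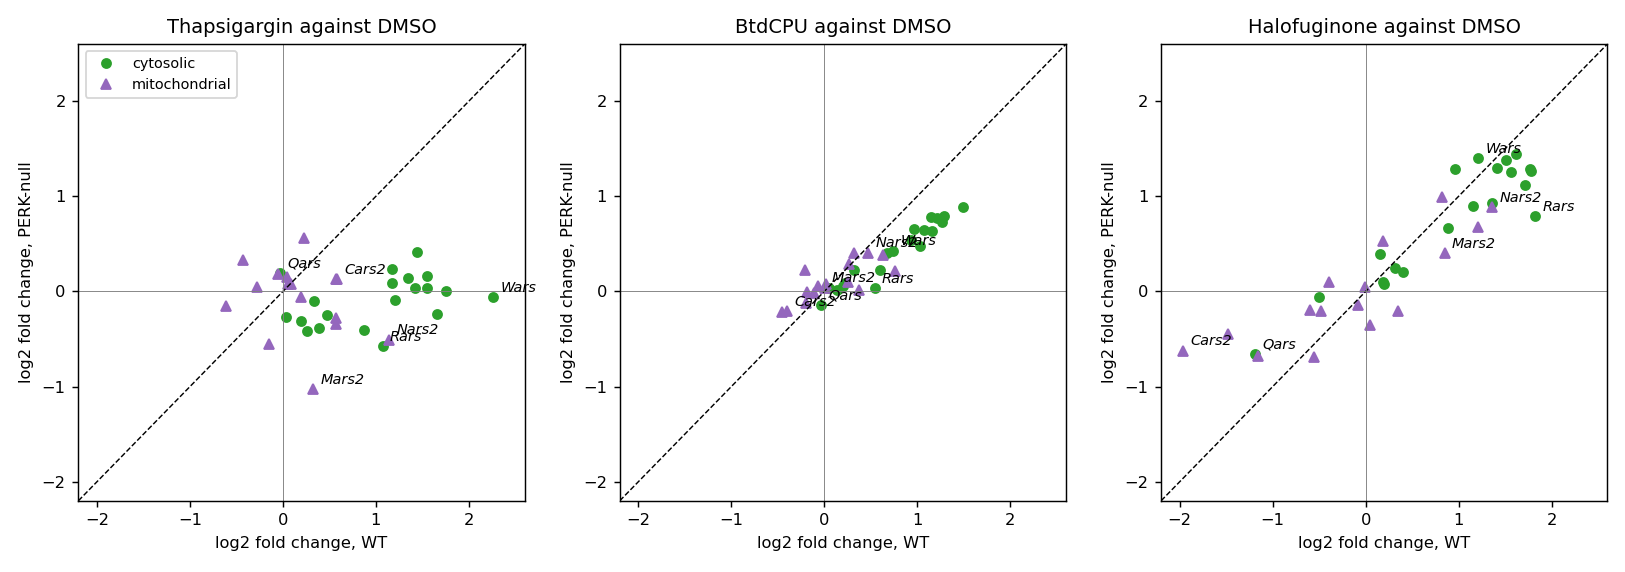
Log2 fold change against DMSO in WT cells (horizontal axis) and PERK-null cells (vertical axis) for thapsigargin, BtdCPU and halofuginone, each point being 1 of 20 cytosolic (circle) or 16 mitochondrial (triangle) synthetase genes, with the dashed line marking equal response. With thapsigargin the cytosolic genes spread along the WT axis and stay near 0 on the PERK-null axis. With BtdCPU they all lie below the dashed line, and with halofuginone they lie on both sides of it.

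BtdCPU raised cytosolic synthetases in both genotypes. In WT cells 15 rose and none fell, against 12.9% of all tested genes higher and 9.31% lower, with a median log2 fold change of 0.84. In PERK-null cells 11 rose and none fell, against 2.55% higher and 1.04% lower among all tested genes, with a median of 0.45. Over all tested genes the medians were -0.01 for WT and 0.00 for PERK-null cells. Sars led in both: 288, 289 and 276 CPM with DMSO and 893, 650.0 and 849.7 CPM with BtdCPU in WT libraries, a log2 fold change of 1.49 ± 0.12 (SE; edgeR adjusted p = 3.21e-11). The PERK-null libraries held 478, 508 and 483 CPM with DMSO and 954, 858 and 900.2 CPM with BtdCPU, 0.88 ± 0.11 (SE; edgeR adjusted p = 4.19e-06). No treated library overlapped its controls. Aars had rises of 1.29 (WT) and 0.80 (PERK-null), and Nars of 1.26 and 0.73. Cars, the cysteine enzyme, had rises of 1.15 and 0.78, and Gars of 1.21 and 0.77. All 11 calls in PERK-null cells and 14 of the 15 in WT cells stood in every alternative analysis, the exception being Vars, lost without WT BtdCPU libraries 1 or 3 or WT DMSO libraries 1 or 2 (edgeR adjusted p = 0.0627 to 0.135). Of all genes called with BtdCPU in WT cells 58.1% were higher, or 45.1% with library size as the only scaling.

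WT BtdCPU library 2 lay below the other 2 for these genes. The cytosolic sum was 13361, 10397 and 13108 CPM in the WT BtdCPU libraries 1, 2 and 3, and Aars stood at 1868, 1347 and 1912 CPM. In PERK-null BtdCPU libraries the sum was 10711, 10276 and 10325 CPM. The difference between genotypes in the BtdCPU response was called for 1 cytosolic gene, Yars, the tyrosine enzyme, at -0.56 ± 0.12 (SE; edgeR adjusted p = 0.0291), where 0.162% of all tested genes were lower and 0.0373% higher. Cytosolic differences ran from -0.60 for Sars to -0.01 for Dars, with a median of -0.37 beside 0.00 over all tested genes. Without WT BtdCPU library 2, 10 of the 36 members were called, and 10 were with the replicate number as a block within genotype. The Yars call was lost without WT BtdCPU libraries 1 or 3, WT DMSO libraries 1, 2 or 3, PERK-null BtdCPU libraries 1, 2 or 3 or PERK-null DMSO libraries 1 or 2 (edgeR adjusted p = 0.067 to 0.215).

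Mitochondrial members gave 5 rises and 2 falls with BtdCPU in WT cells, against 12.9% of all tested genes higher and 9.31% lower. None of these 7 calls stood in every alternative analysis. Wars2, for tryptophan, went from 10.7, 10.2 and 12.4 CPM to 21.9, 13.9 and 20.4 CPM, a log2 fold change of 0.76 ± 0.15 (SE; edgeR adjusted p = 0.000298), and Fars2 went from 20.9, 20.2 and 21.1 CPM to 37.2, 25.3 and 33.7 CPM, 0.63 ± 0.12 (SE; edgeR adjusted p = 0.000203). Neither overlapped its controls, but with only the compared groups fitted the edgeR adjusted p was 0.0536 and 0.0517. In PERK-null cells 2 rose, Nars2 (0.41) and Tars2 (0.40), and none fell, against 2.55% of all tested genes higher and 1.04% lower. Both calls were lost without single libraries. Nars2 was lost without each of the 6 in turn (edgeR adjusted p = 0.0545 to 0.0971), and Tars2 without PERK-null BtdCPU libraries 1 or 3 or PERK-null DMSO libraries 1 or 2 (edgeR adjusted p = 0.0603 to 0.099).

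Halofuginone raised cytosolic synthetases in both genotypes. In WT cells 16 cytosolic genes rose and 2 fell, against 34.7% of all tested genes higher and 33.4% lower, with a median log2 fold change of 1.18. In PERK-null cells 14 rose and 1 fell, against 21.2% higher and 21% lower, with a median of 0.91. In the same WT libraries the fibroblast marker sum was 27301 to 38529.6 CPM, against 20058 to 29580.3 CPM with DMSO, and in the PERK-null ones 15506 to 16494 against 14038 to 17896 CPM. The neuron sum was 10.3 to 23.95 against 53.5 to 64.2 CPM in WT and 49.1 to 72.9 against 47.6 to 54.8 CPM in PERK-null libraries. The part of these markers in the halofuginone results was not tested. Eprs, the enzyme that halofuginone inhibits, went from 509, 483 and 529 CPM to 1448, 1371 and 1214 CPM in WT libraries, a log2 fold change of 1.41 ± 0.10 (SE; edgeR adjusted p = 2.39e-13). In PERK-null libraries it went from 453, 427 and 426 CPM to 1039, 999 and 1169.6 CPM, 1.30 ± 0.10 (SE; edgeR adjusted p = 1.4e-11). Treated and control libraries did not overlap in either genotype, and the difference between genotypes was -0.11 ± 0.14 (SE; edgeR adjusted p = 0.582), with a 95% interval of -0.39 to 0.17.

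Rars had the largest cytosolic rise with halofuginone in WT cells, from 479, 433 and 447 CPM to 1702, 1683 and 1418 CPM, a log2 fold change of 1.82 ± 0.12 (SE; edgeR adjusted p = 1.51e-14). Its PERK-null libraries stood at 484, 462 and 417 CPM with DMSO and 764, 712 and 879 CPM with halofuginone. The rise there was smaller, with a difference of -1.03 ± 0.16 (SE; edgeR adjusted p = 1.1e-05). Nars and Aars followed in WT cells, with log2 fold changes of 1.78 and 1.77, and Tars, Wars and Sars led in PERK-null cells with 1.44, 1.40 and 1.39. Over the 20 cytosolic genes the difference between genotypes was lower for 5, higher for 2 and not called for 13, against 17.5% lower and 17.5% higher among all tested genes, with a median of -0.15. The 5 were Rars, Nars, Iars, Aars and Yars, of which Rars and Nars stood in 17 alternative analyses. Iars was lost without WT halofuginone library 3, WT DMSO library 2, PERK-null halofuginone libraries 1 or 2 or PERK-null DMSO library 3 (edgeR adjusted p = 0.0501 to 0.0799), and Aars and Yars with no filter on low counts (edgeR adjusted p = 0.0531 and 0.108).

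**Figure D3:**
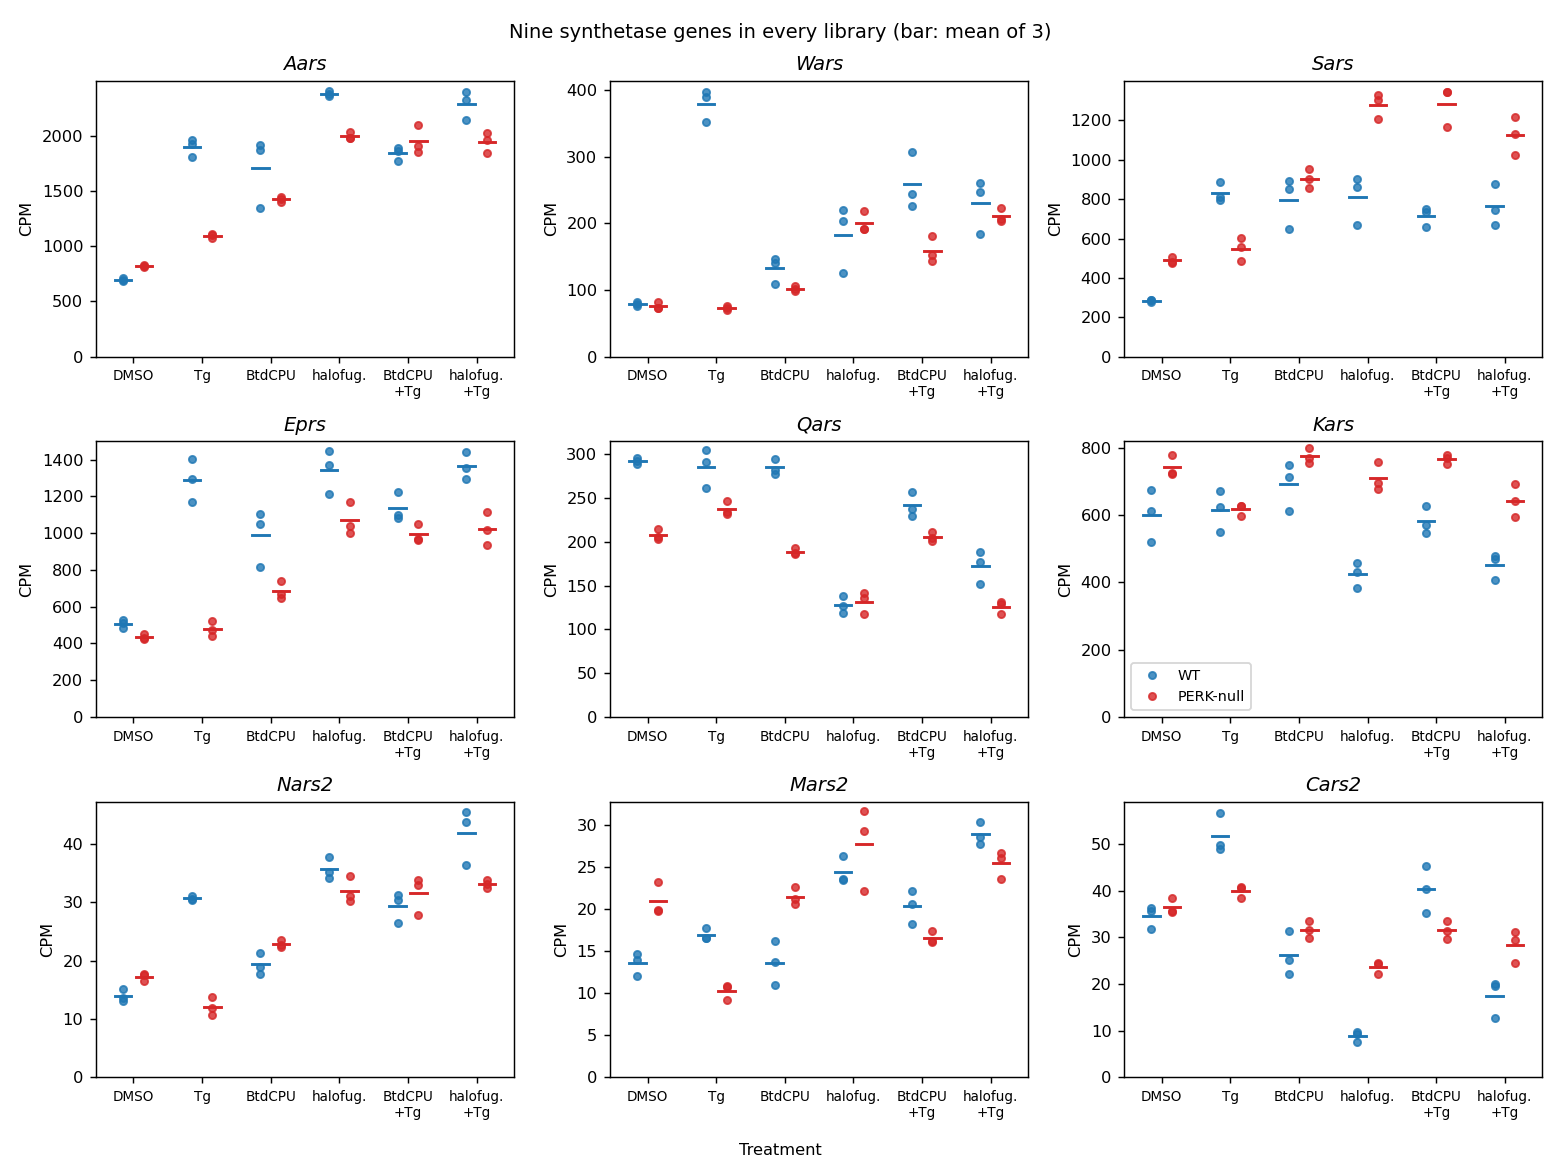
CPM of 9 synthetase genes in every library (dots; bar, mean of 3) across the 6 treatments (horizontal axis) in WT (blue) and PERK-null (red) cells. Wars lies at 351 to 397 CPM in the WT thapsigargin libraries and at 69.9 to 76.0 CPM in the PERK-null ones, Qars and Cars2 are low in halofuginone libraries, and Nars2 lies at 10.6 to 13.8 CPM with thapsigargin and at 27.9 to 33.8 CPM with BtdCPU added in PERK-null cells.

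Qars went against most of its set with halofuginone. It was called lower in 7 of the 12 comparisons between treatments within a genotype, and higher in none. These were the comparisons with halofuginone, some of which share libraries, and BtdCPU over thapsigargin in PERK-null cells, a call lost without single libraries. With thapsigargin alone or BtdCPU alone Qars was not called against DMSO in either genotype. In WT cells it fell with halofuginone from 289, 292 and 295 CPM to 138, 127 and 119 CPM, a log2 fold change of -1.19 ± 0.08 (SE; edgeR adjusted p = 8.56e-14). PERK-null libraries went from 203, 215 and 206 CPM to 135, 142 and 118 CPM, -0.66 ± 0.08 (SE; edgeR adjusted p = 9.83e-08). Halofuginone libraries of both genotypes lay in the same range, while the controls differed, and the difference in response was 0.53 ± 0.12 (SE; edgeR adjusted p = 0.000604). Kars fell with halofuginone in WT cells from 613, 519 and 674 CPM to 456, 432 and 384 CPM, -0.50 ± 0.10 (SE; edgeR adjusted p = 2.67e-05), and was not called in PERK-null cells, at -0.06. The difference between genotypes for Kars was 0.44 ± 0.13 (SE; edgeR adjusted p = 0.011). Both enzymes belong to the multisynthetase complex, in which 6 genes rose and 2 fell in WT cells.

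With halofuginone the mitochondrial genes moved in both directions, as all tested genes did. In WT cells 5 rose and 7 fell, against 34.7% higher and 33.4% lower among all tested genes. In PERK-null cells 5 rose and 6 fell, against 21.2% and 21%. Cars2 fell furthest in WT cells, from 36.2, 35.6 and 31.8 CPM to 9.26, 9.79 and 7.55 CPM, a log2 fold change of -1.96 ± 0.14 (SE; edgeR adjusted p = 2.54e-13). PERK-null libraries went from 35.7, 38.4 and 35.4 CPM to 24.5, 24.3 and 22.2 CPM, -0.62 ± 0.14 (SE; edgeR adjusted p = 0.000363), and the difference between these responses was 1.34 ± 0.19 (SE; edgeR adjusted p = 4.47e-06). Its cytosolic counterpart Cars rose in the same libraries by 1.56 and 1.25. Aars2 went from 24.1, 27.3 and 25.3 CPM to 12.04, 10.8 and 11.4 CPM in WT cells, -1.16 ± 0.10 (SE; edgeR adjusted p = 5.13e-12), beside a rise of 1.77 for Aars. Pars2 charges proline, the amino acid whose charging halofuginone blocks in the cytosol, and went from 6.43, 5.54 and 4.92 CPM to 2.04, 2.61 and 1.39 CPM, -1.48 ± 0.19 (SE; edgeR adjusted p = 4.71e-08). The call for Pars2 in PERK-null cells (-0.45) was lost without PERK-null halofuginone libraries 1, 2 or 3 or PERK-null DMSO libraries 2 or 3 (edgeR adjusted p = 0.0597 to 0.194).

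Nars2, Ears2, Mars2 and Rars2 rose instead. Nars2 reached 34.1, 37.8 and 35.2 CPM in WT and 31.00, 30.2 and 34.5 CPM in PERK-null halofuginone libraries, log2 fold changes of 1.36 and 0.89. Ears2, the mitochondrial glutamate enzyme, went from 15.99 ± 2.86 CPM to 37.1 ± 1.01 CPM (SD, n = 3) in WT cells, 1.21 ± 0.11 (SE; edgeR adjusted p = 3.78e-11), and rose by 0.67 in PERK-null cells. These groups did not overlap. Ears2 was not called with thapsigargin in either genotype (0.20 and -0.06) or with BtdCPU (0.26 and 0.29). Mars2 rose by 0.85 in WT cells, and its call in PERK-null cells (0.40) was lost without PERK-null halofuginone library 2 (edgeR adjusted p = 0.0761). Rars2 rose by 0.82 and 0.99, and Tars2 rose by 0.53 in PERK-null cells. Iars2 had a log2 fold change of -0.48 ± 0.08 (SE; edgeR adjusted p = 2.87e-06) in WT cells, where the overlapping Rab3gap2 went from 68.2 ± 10.1 to 272 ± 70.8 CPM.

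Adding either compound to thapsigargin in PERK-null cells raised almost the whole cytosolic set. The sum was 7419, 7362 and 6936 CPM with thapsigargin alone, 12385, 12667 and 13394 CPM with BtdCPU added and 12273, 13125 and 13008 CPM with halofuginone added. All 6 combined libraries lay above all 3 thapsigargin libraries, and below all 3 WT thapsigargin libraries in CPM. With the compound alone the PERK-null sum was 10711, 10276 and 10325 CPM for BtdCPU and 13568, 13735 and 14242 CPM for halofuginone. The libraries with BtdCPU added thus lay above those with BtdCPU alone. Those with halofuginone added lay below those with halofuginone alone. These differences in the sum were not tested. With BtdCPU added 19 cytosolic genes rose and 1 fell, against 17.3% of all tested genes higher and 18.3% lower, and the median log2 fold change was 0.81 beside -0.04 over all tested genes. With halofuginone added 18 rose and 1 fell, against 25.2% higher and 27.5% lower, with a median of 0.85 beside -0.01. All 19 rises with BtdCPU stood in 11 alternative analyses, as did 17 of the 18 with halofuginone. The exception was Mars, lost without PERK-null thapsigargin library 1 (edgeR adjusted p = 0.0537).

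**Figure D4:**
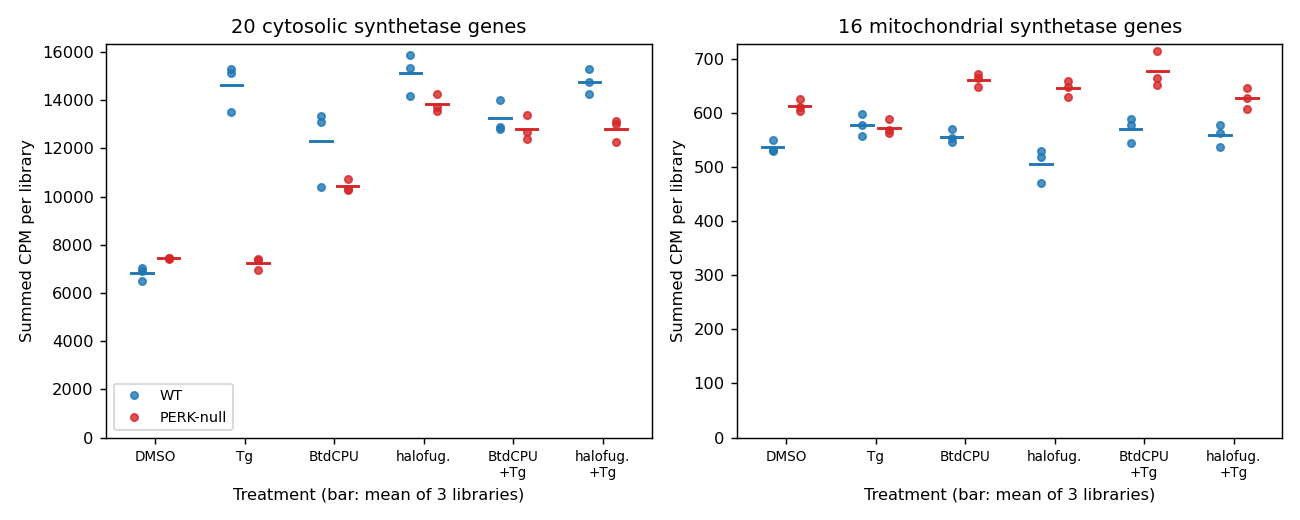
Summed CPM of the 20 cytosolic (left) and 16 mitochondrial (right) synthetase genes in every library (dots; bar, mean of 3) by treatment, in WT (blue) and PERK-null (red) cells. Cytosolic sums lie at 6936 to 7419 CPM in PERK-null thapsigargin libraries and at 12273 to 13394 CPM in the PERK-null combinations, while mitochondrial sums stay between 471 and 715 CPM throughout.

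Sars rose most with BtdCPU over thapsigargin, from 559, 604 and 484 CPM to 1165, 1344 and 1346 CPM, a log2 fold change of 1.23 ± 0.12 (SE; edgeR adjusted p = 1.13e-09). Gars went from 457, 426 and 443 CPM to 934, 1002 and 1112 CPM, 1.20 ± 0.11 (SE; edgeR adjusted p = 4.21e-10), and Wars from 72.9, 69.9 and 76.01 CPM to 143, 152 and 181 CPM, 1.12 ± 0.15 (SE; edgeR adjusted p = 4.43e-07). Tars rose most with halofuginone over thapsigargin, from 384, 392 and 323 CPM to 1089.6, 1159 and 1116 CPM, 1.61 ± 0.10 (SE; edgeR adjusted p = 1.52e-14). Wars followed with 1.53 ± 0.15 (SE; edgeR adjusted p = 3.63e-10). None of these combined libraries overlapped the thapsigargin libraries. Qars was the cytosolic gene that fell, with a log2 fold change of -0.92 ± 0.08 (SE; edgeR adjusted p = 7e-11) with halofuginone. Its fall with BtdCPU (-0.21) was lost without each of the 6 libraries in turn (edgeR adjusted p = 0.0788 to 0.264).

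Mitochondrial members again moved in both directions in these cells, as all tested genes did. With BtdCPU over thapsigargin 5 rose and 2 fell, against 17.3% of all tested genes higher and 18.3% lower. Nars2 went from 11.95, 13.8 and 10.6 CPM to 27.9, 32.97 and 33.8 CPM, 1.38 ± 0.11 (SE; edgeR adjusted p = 2.49e-11), and Tars2, Mars2, Wars2 and Rars2 rose by 0.79, 0.69, 0.50 and 0.45. The fall of Cars2 was lost without PERK-null BtdCPU with thapsigargin libraries 1, 2 or 3 or PERK-null thapsigargin libraries 1, 2 or 3 (edgeR adjusted p = 0.0876 to 0.21), and that of Lars2 without PERK-null BtdCPU with thapsigargin libraries 1, 2 or 3 or PERK-null thapsigargin libraries 1, 2 or 3 (edgeR adjusted p = 0.0658 to 0.272). With halofuginone over thapsigargin 5 rose and 7 fell, against 25.2% of all tested genes higher and 27.5% lower. Nars2, Mars2 and Rars2 rose by 1.45, 1.31 and 1.16. Lars2 went from 19.7, 19.3 and 21.2 CPM to 11.4, 11.9 and 11.2 CPM, -0.80 ± 0.12 (SE; edgeR adjusted p = 1.06e-06), and Pars2 and Aars2 had log2 fold changes of -0.79 and -0.64.

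In WT cells the same additions changed little or changed members in both directions. With BtdCPU over thapsigargin 1 cytosolic gene was called, Wars, at -0.55 ± 0.15 (SE; edgeR adjusted p = 0.0388), and no mitochondrial gene was, where 1.29% of all tested genes were higher and 1.02% lower. The Wars call was lost without WT BtdCPU with thapsigargin libraries 2 or 3 or WT thapsigargin libraries 1 or 3 (edgeR adjusted p = 0.0859 to 0.29). Same-numbered libraries of these groups deviated together, and with the replicate number as a block 7 of the 36 members were called. Of all genes called here 55.9% were higher, or 44.6% with DESeq2 size factors and 80.7% where only library size was scaled for. With halofuginone over thapsigargin 4 cytosolic genes were higher and 6 lower, against 22.8% and 22.5% of all tested genes, with a median of 0.01. The 4 lower calls that stood in every alternative analysis were Qars (-0.73), Wars (-0.72), Gars (-0.46) and Kars (-0.45), and no higher call did. Mitochondrial genes were higher in 4 cases and lower in 4, against the same shares of all tested genes. Ears2 (1.24) and Mars2 (0.77) led the higher ones, and Cars2 (-1.57) and Pars2 (-0.66) the lower ones.

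The effect of each addition differed between genotypes by direct test. For BtdCPU over thapsigargin the PERK-null response exceeded the WT response for 19 of 20 cytosolic genes and fell below it for none, against 10.7% higher and 10.1% lower among all tested genes. The median difference was 0.84, and the difference was 1.67 ± 0.21 (SE; edgeR adjusted p = 6.11e-07) for Wars and 1.48 ± 0.15 (SE; edgeR adjusted p = 2.56e-08) for Gars. Dars lost the call without WT thapsigargin library 1 or PERK-null thapsigargin library 3 (edgeR adjusted p = 0.0588 to 0.0668), and Kars without WT BtdCPU with thapsigargin library 2, WT thapsigargin libraries 1 or 3 or PERK-null thapsigargin library 1 (edgeR adjusted p = 0.0529 to 0.115). Of all genes called by this test 51.6% were higher, or 41.4% with library size as the only scaling. For halofuginone over thapsigargin it was higher for 17 and lower for none, against 15.9% higher and 16.9% lower, with a median of 0.69. Iars lost that call without WT halofuginone with thapsigargin libraries 1 or 2, WT thapsigargin library 3 or PERK-null halofuginone with thapsigargin library 3 (edgeR adjusted p = 0.0535 to 0.0911). Among mitochondrial genes Nars2 was higher in both tests, at 1.45 and 1.00, and Lars2 was lower in both, at -0.69 and -0.96. The thapsigargin libraries serve as controls in these tests and as treated libraries in the thapsigargin test, so the 2 sets of values are not independent.

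Halofuginone and BtdCPU were compared directly within each genotype, with the reservation that the labels give no dose, so a difference of compound cannot be told apart from one of dose. In WT cells 11 cytosolic genes were higher with halofuginone and 4 lower, against 32.4% and 31.9% of all tested genes. The largest differences were Rars at 1.28 ± 0.12 (SE; edgeR adjusted p = 3.88e-11) and Qars at -1.15 ± 0.08 (SE; edgeR adjusted p = 2.56e-13). For PERK-null cells 14 were higher and 1 lower, against 17.9% and 18.1%, led by Wars at 0.97 ± 0.15 (SE; edgeR adjusted p = 4.64e-06) and Tars at 0.80 ± 0.09 (SE; edgeR adjusted p = 9.16e-08). Qars was the gene that was lower there, at -0.52 ± 0.08 (SE; edgeR adjusted p = 7.92e-06). Of the mitochondrial genes 5 were higher and 10 lower with halofuginone in WT cells, of which 4 and 6 stood in every alternative analysis. In the other genotype 4 were higher and 6 lower, of which 3 and 2 did. Rars2 was the highest in both, at 1.02 and 0.76, and Nars2 was higher at 0.89 and 0.48. Cars2, Pars2 and Aars2 had the lowest values in WT cells, at -1.56, -1.37 and -0.96, and Lars2 the lowest in PERK-null cells, at -0.69.

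Before any stress treatment the genotypes differed at some members, as they did at many other genes. In DMSO 6 cytosolic genes were higher and 3 lower in PERK-null than in WT libraries, against 24.6% and 24.9% of all tested genes, with a median of 0.13. Sars stood at 288, 289 and 276 CPM in WT and 478, 508 and 483 CPM in PERK-null libraries, 0.78 ± 0.11 (SE; edgeR adjusted p = 9.73e-07), and Qars at 289, 292 and 295 CPM and 203, 215 and 206 CPM, -0.49 ± 0.08 (SE; edgeR adjusted p = 7.23e-06). Neither pair of groups overlapped. Of the mitochondrial genes 8 were higher and 2 lower, against the same shares of all tested genes. Their median was 0.28, beside 0.02 over all tested genes. Aars2 stood at 24.1, 27.3 and 25.3 CPM and 46.5, 56.7 and 50.1 CPM, 1.00 ± 0.09 (SE; edgeR adjusted p = 1.6e-10), and Tars2 at 54.6, 50.8 and 57.8 CPM and 101, 97.2 and 102 CPM, 0.88 ± 0.10 (SE; edgeR adjusted p = 1.04e-08). Sars2 and Mars2 were higher by 0.68 and 0.63, and Lars2 and Iars2 lower, with log2 differences of -0.50 and -0.40. Of the 19 calls, 11 stood in every alternative analysis.

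Enzymes for the same amino acid in the 2 compartments were set side by side in 15 pairs, Fars2 being paired with both Farsa and Farsb. In WT cells the cytosolic log2 fold change exceeded the mitochondrial one in all 15 pairs with thapsigargin, in 12 with BtdCPU and in 14 with halofuginone. In PERK-null cells it did so in 8 pairs with thapsigargin, 12 with BtdCPU and 13 with halofuginone. The widest gap in WT cells was tryptophan with thapsigargin (2.26 for Wars, -0.05 for Wars2). With halofuginone it was cysteine (1.56 for Cars, -1.96 for Cars2), followed by alanine (1.77 for Aars, -1.16 for Aars2). Methionine was the exception with halofuginone, at 0.40 for Mars and 0.85 for Mars2. These gaps are a description, since differences between genes were not tested.

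A further 14 genes work beside the synthetases. With thapsigargin in WT cells 3 rose and 1 fell, against 24.9% higher and 22.7% lower among all tested genes. PERK-null cells gave no rise and 3 falls, against 15.2% and 12.7%. Xpot, the exporter that carries tRNA out of the nucleus, went from 144 ± 2.48 to 312 ± 8.83 CPM in WT cells, a log2 fold change of 1.12, and was not called in PERK-null cells, at -0.16. Sepsecs, which completes selenocysteine on its tRNA, rose by 1.09 with thapsigargin and by 2.17 with halofuginone in WT cells, from 6.66 ± 0.429 to 14.1 ± 2.62 and 30.1 ± 2.09 CPM. Halofuginone raised 3 of the 14 and lowered 6 in WT cells, against 34.7% higher and 33.4% lower among all tested genes, the lowest being Mtfmt, which formylates mitochondrial initiator tRNA, at -1.45. The scaffold genes of the multisynthetase complex, Aimp1, Aimp2 and Eef1e1, had log2 fold changes of 0.18, 0.44 and 0.23 with thapsigargin in WT cells, of which Aimp2 was called. When BtdCPU joined thapsigargin in PERK-null cells 10 of the 14 rose and none fell, against 17.3% higher and 18.3% lower among all tested genes, led by Eef1e1 at 1.18 and Xpot at 1.10.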

How the data were processed

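RNA of MEF was sequenced as 36 libraries made with a strand-specific kit, per the labels' protocols. The authors deposited 1 table of estimated counts per gene symbol, which writes 0.025 for 0 (50.6% of values) and has a fractional part in 2.69% of the rest. The submitters' processing notes name GRCm39 and DESeq. The aligner, the counter and its use of strand are not given in the sources used here. Counts were rounded, 39 repeated symbols were summed and 27 entries turned into dates by a spreadsheet (0.206 to 0.278% of counts) were left out.

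Genes were filtered with filterByExpr, scaled by TMM and fitted with edgeR 4.0.16 (quasi-likelihood; R 4.3.3) over all 36 libraries as 12 groups, with 24 residual degrees of freedom and a common dispersion of 0.0199. There were 13 comparisons between groups and 5 interactions, each adjusted by Benjamini-Hochberg over 16065 genes. A gene was called at an adjusted p below 0.05. SE is that of the log2 fold change. The script was tested on simulated counts.

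Alternatives were DESeq2 1.42.0, library size as the only scaling, no filter on low counts, only the compared groups in the fit, the replicate number as a block within genotype, and leaving out each library in turn. Same-numbered libraries deviated together, each correlation being over 0.1, in WT BtdCPU with thapsigargin against WT thapsigargin (0.16, 0.31 and 0.34) and in WT halofuginone with thapsigargin against WT thapsigargin (0.16, 0.20 and 0.31). In the other comparisons tested the lowest correlation was under 0.1 but positive, as in WT BtdCPU against WT DMSO (0.07, 0.25 and 0.29). In some of these, same-numbered libraries were still each other's closest match. These were WT BtdCPU and WT halofuginone against WT DMSO, and PERK-null thapsigargin against PERK-null DMSO. The others were PERK-null BtdCPU with thapsigargin against PERK-null thapsigargin, and PERK-null halofuginone against PERK-null BtdCPU. The main fit had no term for the replicate number. With the block, 3042 of all tested genes were higher and 2492 lower with BtdCPU in WT cells, against 2075 and 1496 without it.

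Members and lists were chosen with earlier results of these data known. Values are given for 13 chosen readouts, for the 3 highest and 3 lowest called members of each set in each comparison, and for members that went against their set. Promoters came from RefSeq (GRCm38.p6; 27 of 36 members had an entry), and exon lengths and overlaps from GENCODE vM21.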

Additional observations from a re-analysis of the deposited data

Results flagged for a closer look

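For the members given with their values, the PERK-null response minus the WT response differed from 0 by the interaction test (edgeR adjusted p below 0.05) in 57 cases, each given here as a log2 difference. Many were given because they were called, so 57 is no measure of how often members differ. All tested genes called lower and higher were 18.6% and 19.5% with thapsigargin, 0.162% and 0.0373% with BtdCPU and 17.5% and 17.5% with halofuginone. They were 10.1% and 10.7% with BtdCPU added to thapsigargin and 16.9% and 15.9% with halofuginone added. With thapsigargin, the PERK-null response was lower for the cytosolic Wars at -2.32, Tars at -1.90, Nars at -1.75, Gars at -1.52, Yars at -1.30, Eprs at -1.21, Aars at -1.03, Hars at -0.72 and Mars at -0.44. With thapsigargin, the PERK-null response was lower for the mitochondrial Nars2 at -1.65, Mars2 at -1.35 and Rars2 at -0.91. With thapsigargin, the PERK-null response was higher for the mitochondrial Lars2 at 0.76, Aars2 at 0.46 and Iars2 at 0.33. With BtdCPU, the PERK-null response was lower for the cytosolic Yars at -0.56. With halofuginone, the PERK-null response was lower for the cytosolic Rars at -1.03, Iars at -0.60, Nars at -0.52, Aars at -0.48 and Yars at -0.44. With halofuginone, the PERK-null response was higher for the cytosolic Qars at 0.53 and Kars at 0.44. With halofuginone, the PERK-null response was lower for the mitochondrial Wars2 at -0.55, Ears2 at -0.54 and Nars2 at -0.47. With halofuginone, the PERK-null response was higher for the mitochondrial Cars2 at 1.34, Pars2 at 1.03, Hars2 at 0.50, Aars2 at 0.49 and Iars2 at 0.28. With BtdCPU added to thapsigargin, the PERK-null response was higher for the cytosolic Wars at 1.67, Gars at 1.48, Sars at 1.45, Eprs at 1.24, Yars at 0.96, Aars at 0.88, Mars at 0.60, Hars at 0.57 and Kars at 0.39. With BtdCPU added to thapsigargin, the PERK-null response was lower for the mitochondrial Lars2 at -0.69. With BtdCPU added to thapsigargin, the PERK-null response was higher for the mitochondrial Nars2 at 1.45 and Tars2 at 0.93. With halofuginone added to thapsigargin, the PERK-null response was higher for the cytosolic Wars at 2.25, Tars at 1.58, Gars at 1.57, Eprs at 1.01, Yars at 0.90, Hars at 0.77, Aars at 0.56 and Kars at 0.50. With halofuginone added to thapsigargin, the PERK-null response was lower for the mitochondrial Lars2 at -0.96, Wars2 at -0.77 and Ears2 at -0.53. With halofuginone added to thapsigargin, the PERK-null response was higher for the mitochondrial Cars2 at 1.08, Rars2 at 1.07 and Nars2 at 1.00. With thapsigargin the Iars2 call was lost when PERK-null thapsigargin library 3 or PERK-null DMSO library 1 was left out (edgeR adjusted p = 0.06 to 0.0702), and the Aars2 call with no filter on low counts (edgeR adjusted p = 0.0772). With halofuginone, left-out single libraries ended the calls of Hars2 (WT DMSO library 1; edgeR adjusted p = 0.0517), Nars2 (PERK-null halofuginone libraries 1 or 2; edgeR adjusted p = 0.0525 to 0.0661), Iars2 (WT halofuginone libraries 2 or 3, WT DMSO libraries 1 or 3 or PERK-null DMSO libraries 1 or 2; edgeR adjusted p = 0.0614 to 0.118) and Wars2 (WT halofuginone libraries 1 or 3, WT DMSO libraries 1 or 2, PERK-null halofuginone libraries 1 or 2 or PERK-null DMSO libraries 1 or 3; edgeR adjusted p = 0.0512 to 0.123). Leaving out the filter ended the Ears2 calls with halofuginone and with halofuginone added to thapsigargin (edgeR adjusted p = 0.0982 and 0.118). Hars2 shares 195 exon bases with Hars on the opposite strand, and the part of Hars reads in its value was not tested.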

How the results depend on the processing

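No named value that was called in the main fit or in an alternative differed in direction between the 2. Changes of sign in values called in neither were not counted. Over the named genes, calls kept their side of the threshold in 318 of 328 cases with DESeq2, 314 with library size as the only scaling, 297 with no filter, 301 with only the compared groups, 309 with the block and 2323 of 2484 with 1 library left out. The named genes include the highest and lowest called members by rule, so these counts do not stand for all members. Of the 36 members, 15 were called in PERK-null cells with thapsigargin, and 9 to 12 with 1 library left out. With BtdCPU in WT cells 22 were called, and 14 with only the compared groups. With BtdCPU over thapsigargin in WT cells 1 was called, 5 with DESeq2, 2 with library size as the only scaling, 0 with only the compared groups, 7 with the replicate block, and 0 to 1 with 1 library left out. The BtdCPU interaction gave 1 call, 4 with DESeq2, 0 with library size, 0 with only the compared groups, 10 with the replicate block, and 0 to 10 with 1 library left out. The halofuginone interaction gave 16, and 9 with no filter. The block changed no other count of called members by over 1.5 times. Library size as the only scaling set the median of all genes at -0.11 with halofuginone in WT cells and at 0.10 in the halofuginone interaction. The cause of these shifts was not tested. With 3 libraries a group, genes under a few CPM, such as Pars2, have the widest errors.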
